A study of Mus musculus with 6 samples.

Results

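Tight junctions are the seals that epithelial cells build around their upper ends. In the liver they close off the bile canaliculi, the narrow channels between neighbouring hepatocytes, and the bile ducts, so that bile is kept apart from blood. Claudins are membrane proteins with 4 transmembrane segments whose extracellular loops pair across the gap between cells and set which ions pass. Occludin (Ocln) is another membrane protein of the seal, and ZO-1 (Tjp1) is the scaffold that ties these proteins to actin. The genes described here are 8 claudins (Cldn1, Cldn2, Cldn3, Cldn4, Cldn6, Cldn7, Cldn12 and Cldn14) with Ocln and Tjp1. They were picked by symbol, all 10 were present among the 17975 genes of the deposited table, and all 10 were among the 13805 genes with enough counts to be tested.

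RNA from whole liver tissue was sequenced for 3 wild-type (WT) mice and 3 Hom mice, in which both floxed NEK7 alleles (NEK7 fl/fl) are deleted by an Alb-Cre transgene. The albumin promoter drives the Cre recombinase in hepatocytes, so that other liver cells are not the target. The floxed and Alb-Cre lines are on the C57BL/6 background; the strain of these WT mice is not given in the sources used here. The age of the 6 mice is not given for these libraries, and it is not stated whether WT mice carry floxed alleles. The labels name no treatment. In whole tissue, fewer cells of a type and less RNA per cell cannot be told apart. Each library held between 19349418 and 19730236 estimated counts. Nek7 itself, the targeted kinase gene, had 1127, 1077 and 1036 counts in the WT livers and 310, 439 and 387 in the Hom livers, a log2 difference of −1.99 with a standard error (SE) of 0.10 and an adjusted p of 1.59e-04. The hepatocyte product Alb was abundant throughout, with 960702 to 2217258 counts a liver. Hom replicate 1 had 0 counts of the Y-linked genes Ddx3y and Kdm5d, whereas each of the other 5 livers had at least 243 of either. The labels give no sex, and sex was not modelled.

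Levels are given as CPM, the counts of a gene scaled to a fixed library total, after TMM scaling, which corrects each library for its composition, and differences as log2 fold changes of Hom against WT livers. A gene was called at a Benjamini-Hochberg adjusted p under 0.05 in the quasi-likelihood test of edgeR over all 13805 genes. Over all tested genes the median was −0.0018 with TMM factors and 0.45 when libraries were scaled by their size alone, so that each direction below is relative to the typical gene.

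Of the 10 genes, 7 were higher in Hom livers (Cldn2, Cldn3, Cldn4, Cldn6, Cldn7, Cldn14 and Tjp1), against 21.5% of all tested genes, and 1 was lower (Cldn12), against 20.1%. Cldn1 and Ocln were not called. Over all 10, the median difference was 0.56 on the log2 scale. The Hom livers lay wholly above the WT livers for 8 genes, the 7 called higher and Ocln, and wholly below them for Cldn12; over all tested genes the Hom livers lay wholly above in 28.7% and wholly below in 27.0%. The changes fell into a group of 3 claudins whose WT means were under 1 CPM and which rose by more than 2 on the log2 scale, and a group of more abundant genes that moved by less than 1. This pattern is in part set by the filter on low counts. A gene with few WT counts can be tested only if its Hom livers hold enough counts. The same holds for the other genes below with few WT counts.

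The 3 claudins with the largest rises, Cldn4, Cldn6 and Cldn7, and Cldn2, the claudin with the largest increase in CPM, are shown with the 250 bases before their RefSeq transcript starts (build GRCm38.p6, 5′ to 3′ on the gene's strand), to set claudins of low and of high WT level, all higher in Hom livers, side by side. For Cldn7, which has 2 listed starts, the window of the upstream start is given. Capitals mark matches, on either strand, to 4 short motifs: CAGGTG, the E-box read by Snail factors; CATTCC, read by TEAD factors; TATAAA, the TATA box; and AACCNGTT, read by Grainyhead-like factors. No matches of different motifs overlapped in these 4 windows.
Cldn4, chr5:134946935-134947184, minus strand: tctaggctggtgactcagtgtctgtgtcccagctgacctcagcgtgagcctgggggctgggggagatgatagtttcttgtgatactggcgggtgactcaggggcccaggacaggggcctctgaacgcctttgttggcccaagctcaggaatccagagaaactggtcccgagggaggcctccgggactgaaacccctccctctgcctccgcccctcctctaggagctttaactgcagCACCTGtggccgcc
Cldn6, chr17:23679115-23679364, plus strand: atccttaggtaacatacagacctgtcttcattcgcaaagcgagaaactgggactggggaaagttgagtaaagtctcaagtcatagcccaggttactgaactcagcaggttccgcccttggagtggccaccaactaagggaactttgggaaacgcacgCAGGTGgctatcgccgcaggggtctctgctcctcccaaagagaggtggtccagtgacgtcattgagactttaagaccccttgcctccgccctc
Cldn7, chr11:69964529-69964778, plus strand: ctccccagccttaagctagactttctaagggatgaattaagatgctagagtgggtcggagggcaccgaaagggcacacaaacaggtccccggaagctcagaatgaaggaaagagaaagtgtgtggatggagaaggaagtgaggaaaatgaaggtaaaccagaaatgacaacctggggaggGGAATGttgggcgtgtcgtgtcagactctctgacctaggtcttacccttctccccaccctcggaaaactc
Cldn2, chrX:139800558-139800807, plus strand: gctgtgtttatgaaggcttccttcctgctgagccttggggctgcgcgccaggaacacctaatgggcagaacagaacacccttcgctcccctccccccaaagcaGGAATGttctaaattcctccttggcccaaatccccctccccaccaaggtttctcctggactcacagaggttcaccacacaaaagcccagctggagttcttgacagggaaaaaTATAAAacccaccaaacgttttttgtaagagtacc
Cldn4 and Cldn6 each held 1 E-box, 14 and 93 bases before the start. Cldn7 held 1 TEAD match at 70 bases, and Cldn2 held a TEAD match at 147 bases and a TATA box at 35 bases before the start. All 10 genes matched the RefSeq table, with 16 windows in all. The E-box occurred in 5 of the 16 windows, against 17.2% of the 32851 promoter windows of that length in the table; the second window of Cldn7 held 2 of these matches, 97 and 57 bases before its start. The TEAD letters occurred in 2 of 16 windows (12.6% of all), the TATA letters in 1 (12.4% of all) and the Grainyhead-like letters in 0 (1.79% of all). The matches are descriptions of letters only. In the RefSeq order of protein-coding genes, Cldn4 and Cldn3 are neighbours on chromosome 5, Cldn6 lies next to Cldn9 on chromosome 17, and Ocln lies next to Marveld2 on chromosome 13.

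Cldn7, a claudin typical of ductal and gut epithelia, had the largest log2 fold change with TMM factors. Cldn4 exceeded it with the replicate number as a block (3.12 against 2.87), without WT replicate 3 (4.11 against 2.82) and without Hom replicate 3 (2.76 against 2.74). Cldn7 was at 1.01, 0.706 and 0.614 CPM in WT replicates 1, 2 and 3 and at 3.13, 7.30 and 7.93 CPM in Hom replicates 1, 2 and 3. All Hom livers were above all WT livers, with Hom replicate 1 the lowest of its group. The mean was 0.775 ± 0.204 CPM in WT and 6.12 ± 2.61 CPM in Hom livers (SD, n = 3 mice each), a 7.81-fold difference (log2 fold change 2.97, SE 0.42, adjusted p = 0.0024).

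Cldn4, a barrier-forming claudin of ductal epithelia, had 6, 6 and 32 counts in the WT livers and 123, 155 and 158 in the Hom livers. This was 0.335, 0.385 and 1.97 CPM in WT and 5.74, 6.39 and 6.81 CPM in Hom livers. WT replicate 3 stood above the other WT livers, yet under every Hom liver. The mean was 0.895 ± 0.928 CPM in WT and 6.31 ± 0.539 CPM in Hom livers (SD, n = 3 mice each), and the log2 fold change was 2.82 (SE 0.60, adjusted p = 0.010). Without WT replicate 3 the log2 fold change was 4.11 (adjusted p = 9.24e-04), and without WT replicate 1 or 2 it was 2.41 or 2.47. In the same WT replicate 3, the basal keratin gene Krt5 had 1039 counts against 44 and 84 in the other WT livers; its part in the Cldn4 value was not tested.

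Cldn6, known from embryonic epithelia, had 17, 9 and 5 counts in WT and 29, 77 and 89 in Hom livers. It was at 0.949, 0.577 and 0.307 CPM in WT and at 1.35, 3.17 and 3.84 CPM in Hom livers. The groups did not overlap, but Hom replicate 1 lay close to WT replicate 1. The mean rose from 0.611 ± 0.322 to 2.79 ± 1.29 CPM (SD, n = 3 mice each), and the log2 fold change was 2.17 (SE 0.53, adjusted p = 0.017). The call was lost without WT replicate 2 (adjusted p = 0.063), Hom replicate 2 (0.057) or Hom replicate 3 (0.065), with log2 fold changes of 2.12, 2.07 and 1.88. Over the 6 livers, Cldn6 had the fewest counts of the 10 genes.

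**Figure D1:**
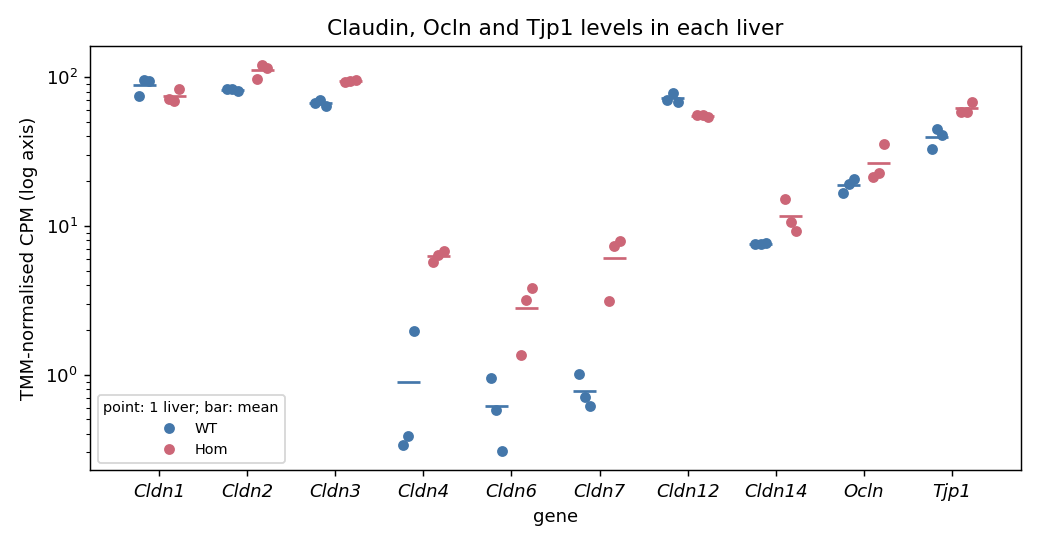
TMM-normalised CPM (log axis) of the 10 genes in each liver; points are single livers (WT blue, Hom red) and bars are group means. Cldn4, Cldn6 and Cldn7 start at a mean of 0.895 CPM or less in WT livers, and for Cldn12 all Hom livers sit under all WT livers.

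Among the abundant claudins, Cldn2 and Cldn3 rose and Cldn12 fell. Cldn3, a barrier-forming claudin of hepatocytes and bile ducts, was at 67.3, 70.7 and 64.1 CPM in WT and at 92.4, 93.8 and 95.6 CPM in Hom livers. The Hom livers lay close together and wholly above the WT livers. The means were 67.4 ± 3.27 and 93.9 ± 1.63 CPM (SD, n = 3 mice each), a 1.39-fold difference (log2 fold change 0.48, SE 0.071, adjusted p = 0.0028).

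Cldn2, which forms pores for cations and water, was at 83.5, 82.7 and 80.9 CPM in WT and at 96.8, 120.2 and 116 CPM in Hom livers. Hom replicate 1 was nearest to the WT livers. The means were 82.4 ± 1.35 and 111 ± 12.5 CPM (SD, n = 3 mice each), a 1.35-fold difference (log2 fold change 0.43, SE 0.098, adjusted p = 0.013). Without Hom replicate 2 or 3, the adjusted p was 0.051 or 0.054. In mouse liver Cldn2 is known as a claudin of the hepatocytes around the central vein. Among 12 marker genes of these hepatocytes, 0 were higher and 8 lower (median log2 difference −1.15), with Cyp2e1, which oxidises ethanol, at −2.95 (SE 0.48, adjusted p = 0.0041) and Cyp1a2, which metabolises caffeine, at −2.30 (SE 0.34, adjusted p = 0.0026). Cldn2 thus differed in direction from 8 markers of the zone it is assigned to; with library size alone, 6 of the 12 were lower and 0 higher.

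Cldn12, a claudin without the usual C-terminal motif that binds PDZ scaffolds, was at 70.4, 77.7 and 68.4 CPM in WT and at 55.3, 55.5 and 53.8 CPM in Hom livers. All Hom livers were below all WT livers. The means were 72.2 ± 4.88 and 54.8 ± 0.958 CPM (SD, n = 3 mice each), and the log2 fold change was −0.40 (SE 0.077, adjusted p = 0.0075). This direction depends on the scaling, since with library size alone the log2 fold change was 0.062 (adjusted p = 0.602).

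Cldn1, a claudin essential for the skin barrier and present on hepatocytes, was at 75.1, 96.1 and 94.1 CPM in WT and at 71.1, 68.6 and 83.4 CPM in Hom livers. The groups overlapped through WT replicate 1 and Hom replicate 3. The means were 88.4 ± 11.6 and 74.4 ± 7.92 CPM (SD, n = 3 mice each), and the log2 fold change of −0.25 (95% interval −0.54 to 0.046, adjusted p = 0.150) did not pass the test. With library size alone it was 0.22 (adjusted p = 0.161), and without WT replicate 1 it was −0.36 (adjusted p = 0.040).

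Cldn14, a cation-restricting claudin also known from the inner ear, was at 7.59, 7.57 and 7.68 CPM in WT and at 15.3, 10.6 and 9.22 CPM in Hom livers. The WT livers were almost equal, while Hom replicate 1 stood above the other Hom livers. The means were 7.61 ± 0.0586 and 11.7 ± 3.16 CPM (SD, n = 3 mice each), and the log2 fold change was 0.62 (SE 0.20, adjusted p = 0.042). This call was lost without any one of WT replicates 1, 2 and 3 and Hom replicates 1 and 2 (adjusted p from 0.070 to 0.110). Without Hom replicate 1 the log2 fold change was 0.38. With the replicate number as a block, the call was also lost for Cldn14 (adjusted p = 0.065) and for Cldn6 (adjusted p = 0.060).

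**Figure D2:**
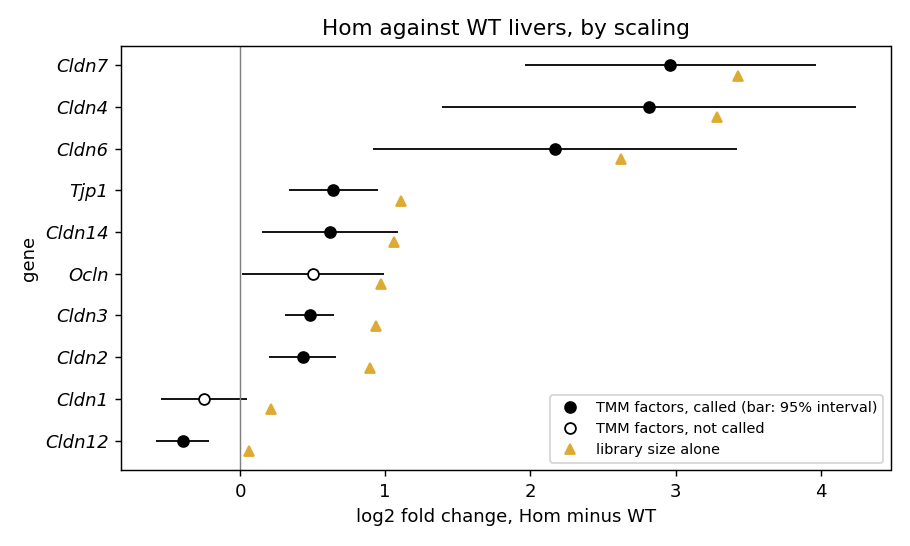
Log2 fold change of Hom against WT livers with TMM factors (circles, filled where called; bars are 95% intervals) and with library size alone (triangles). Scaling by library size moves every gene to the right, which takes Cldn12 from −0.40 to 0.062 and Cldn1 from −0.25 to 0.22, and leaves Cldn7, Cldn4 and Cldn6 as the 3 largest rises.

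Of the non-claudin members, the scaffold gene Tjp1 was at 33.1, 44.6 and 40.9 CPM in WT and at 58.7, 57.9 and 68.5 CPM in Hom livers. The groups did not overlap. The means were 39.5 ± 5.88 and 61.7 ± 5.91 CPM (SD, n = 3 mice each), a 1.56-fold difference (log2 fold change 0.64, SE 0.13, adjusted p = 0.0083). Ocln was at 16.8, 19.1 and 20.5 CPM in WT and at 21.4, 22.6 and 35.8 CPM in Hom livers. The Hom livers lay above the WT livers, but Hom replicate 3 stood apart and the lowest Hom liver was close to the highest WT liver. The means were 18.8 ± 1.90 and 26.6 ± 7.96 CPM (SD, n = 3 mice each), and the log2 fold change of 0.50 (95% interval 0.011 to 0.99, unadjusted p = 0.046, adjusted p = 0.091 in edgeR) did not pass. Without Hom replicate 3 it was 0.23 (adjusted p = 0.224). With library size alone it was called (0.97, adjusted p = 0.0098), which gave 8 genes higher and 0 lower, against 47.6% and 4.65% of all tested genes. Estimated counts were whole numbers in every liver for the members except Ocln.

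The deposited TPM values, which are per gene length, allow levels of different genes to be compared. They lack the composition correction of TMM, so their differences between WT and Hom livers can depart from those in CPM. On this scale Cldn3 was the most abundant of the 10 in WT livers (80.1 ± 9.63 TPM), followed by Cldn2 (42.8 ± 6.47), Cldn1 (39.6 ± 1.05) and Cldn12 (28.9 ± 3.12; all SD, n = 3 mice). Cldn2 and Cldn1 overlapped in their ranges. Cldn14 (8.81 ± 0.950), Tjp1 (8.11 ± 0.484) and Ocln (7.96 ± 0.368) came next, below Cldn12 without overlap, and overlapped in the order Cldn14, Tjp1 and Ocln, each with the next. Cldn7, Cldn4 and Cldn6 stood last, at 0.940 ± 0.364, 0.703 ± 0.699 and 0.637 ± 0.387 TPM, with overlapping ranges. In Hom livers the order of the 10 means was the same. Cldn3 was at 172 ± 14.3 TPM and Cldn2 at 86.2 ± 16.9, now without overlap with Cldn1 at 51.7 ± 6.94, and Cldn7 at 11.01 ± 5.16 overlapped with Ocln at 17.6 ± 5.88 (SD, n = 3 mice).

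The make-up of the claudin transcripts within a liver does not depend on scaling between libraries. The 8 claudins summed to 224, 197 and 187 TPM in the WT livers and to 338, 415 and 408 TPM in the Hom livers. Like all TPM here, the sum is not corrected for composition. Cldn3 took 40.5%, 39.7% and 38.4% of this sum in WT livers and 45.9%, 43.7% and 43.8% in Hom livers. The share of Cldn1 fell from 19.7 ± 2.24% to 13.4 ± 1.19% and that of Cldn12 from 14.3 ± 0.441% to 8.77 ± 0.508% (SD, n = 3 mice each), without overlap. In TPM itself neither mean fell. Cldn1 was at 38.4 to 40.4 TPM in WT and 45.4 to 59.1 TPM in Hom livers. Cldn12 was at 25.7 to 32.0 TPM in WT and 31.4 to 36.3 TPM in Hom livers. TPM lacks the composition correction of TMM, with which Cldn12 was called lower. The mean TPM of Cldn12, 28.9 in WT and 33.8 in Hom livers, thus ran opposite to its CPM after TMM scaling, as did that of Cldn1. Cldn7, Cldn4 and Cldn6 each took a small share. Cldn7 took 0.456 ± 0.131% in WT and 2.77 ± 1.10% in Hom livers, Cldn4 0.365 ± 0.385% and 2.05 ± 0.0917%, and Cldn6 0.305 ± 0.158% and 1.09 ± 0.476% (SD, n = 3 mice each). For these 6 claudins all Hom livers lay on the same side of all WT livers, which gave p = 0.1 in a two-sided exact permutation test, the smallest that 3 mice against 3 allow (0.133 after Benjamini-Hochberg adjustment over the 8 claudins), so that the design cannot reach 0.05. The shares of Cldn2 (21.1 ± 1.21% and 22.1 ± 2.08%, exact permutation p = 0.7, n = 3 each) and Cldn14 (4.35 ± 0.192% and 5.39 ± 1.79%, p = 0.5) overlapped between groups. Without Hom replicate 1 the Cldn14 difference was 0.027 points instead of 1.03 points. The Cldn2 difference of 1.05 points was 0.073 points without Hom replicate 2 and 2.14 points without Hom replicate 1.

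**Figure D3:**
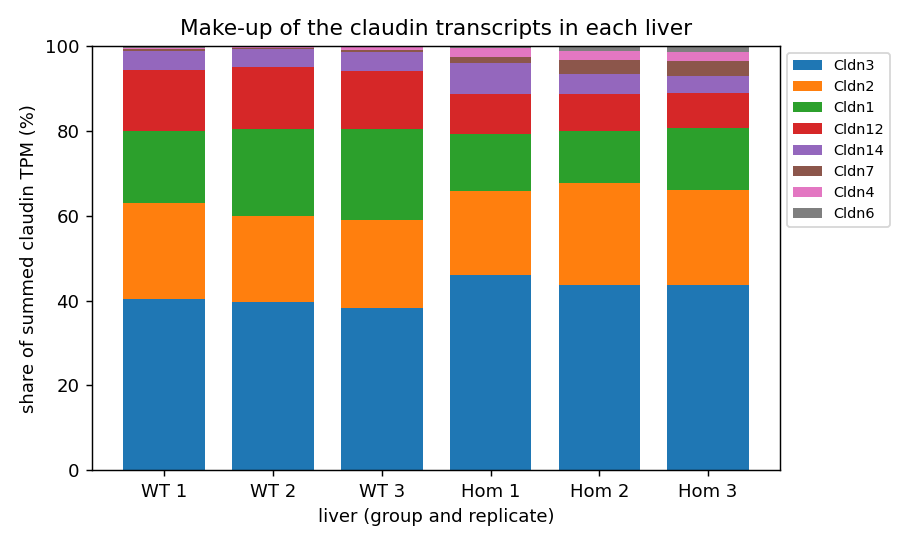
Share of the summed TPM of 8 claudins taken by each of them, in each of 6 livers (stacked bars, percent). Cldn3 takes 38.4% to 40.5% in WT and 43.7% to 45.9% in Hom livers, and the blocks of Cldn1 and Cldn12 are smaller in every Hom liver.

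Further claudins were few. Of 14 others in the table, 5 had enough counts to be tested. Cldn8, a barrier-forming claudin of the kidney tubule, had 10, 3 and 5 counts in WT and 27, 42 and 54 in Hom livers and was higher (log2 fold change 2.29, SE 0.45, adjusted p = 0.0076). Cldn23 had 0, 0 and 5 counts in WT and 26, 15 and 18 in Hom livers and was higher (3.02, SE 0.94, adjusted p = 0.038). Cldn8 and Cldn23 passed the filter on low counts only through their Hom livers. Cldn5, the claudin of endothelial cells, was at 4.28 ± 0.907 CPM in WT and 5.18 ± 1.14 CPM in Hom livers with overlapping groups (log2 fold change 0.28, SE 0.24, adjusted p = 0.379; SD, n = 3 mice each). Cldn15 had a log2 fold change of 0.33 (SE 0.61, adjusted p = 0.686), with 51 counts in Hom replicate 1 and 13 to 18 in the other 5 livers. Cldn34c1 was at 0.26 (SE 0.34, adjusted p = 0.563). Cldn11, singled out after its values were seen, did not pass the filter on low counts, with 1, 0 and 0 counts in WT and 8, 22 and 18 in Hom livers.

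Other membrane proteins of the junction moved mostly upward. Of 12 tested, 7 were higher and 0 were lower, and the median difference was 0.94 on the log2 scale against −0.0018 over all tested genes. The largest rises were in Ildr1 (3.41, SE 0.61, adjusted p = 0.0057) and Marveld2 (1.56, SE 0.11, adjusted p = 3.12e-04), which encodes tricellulin; both proteins sit where 3 cells meet. Marveld2 was at 6.62 ± 0.612 CPM in WT and 19.5 ± 0.577 CPM in Hom livers (SD, n = 3 mice each). Ildr2, a relative of Ildr1, followed at 1.22 (SE 0.21, adjusted p = 0.0043). The 3 genes were also higher with library size alone, upper-quartile factors and DESeq2.

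The cytoplasmic scaffolds and adaptors moved in both directions with TMM factors. Of 25 tested, 9 were higher, 2 were lower and 14 were not called (median log2 difference 0.17). Scaling by library size alone gave 18 higher and 0 lower (median 0.63). The largest rises were in Ect2 (2.58, SE 0.53, adjusted p = 0.0089), best known from cytokinesis, Arhgef2 (1.22, SE 0.23, adjusted p = 0.0066), whose protein is held at junctions, and Amot (1.199, SE 0.12, adjusted p = 7.91e-04), a regulator of YAP. The lower genes were Amotl2 (−0.64, SE 0.15, adjusted p = 0.013), a relative of Amot, and the polarity gene Pard3 (−0.33, SE 0.095, adjusted p = 0.030). With library size alone, neither was called and the log2 fold changes were −0.17 for Amotl2 and 0.13 for Pard3.

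Genes of the other cell contacts gave 7 higher and 2 lower of 16 tested (median log2 fold change 0.27), and 12 higher and 1 lower with library size alone. Cdh1, the E-cadherin of adherens junctions, was at 50.6 ± 1.37 CPM in WT and 148 ± 10.3 CPM in Hom livers (SD, n = 3 mice each; log2 fold change 1.54, SE 0.084, adjusted p = 1.59e-04). Nectin2, an adherens junction protein, rose by 0.75 (SE 0.12, adjusted p = 0.0032) and the desmosomal cadherin Dsc2 by 0.65 (SE 0.11, adjusted p = 0.0047). Gjb1, which encodes connexin 32, the main gap junction protein of hepatocytes, fell by 0.86 on the log2 scale (SE 0.12, adjusted p = 0.0025) and Nectin3 by 0.33 (SE 0.094, adjusted p = 0.028). With library size alone Gjb1 was still lower (−0.40, adjusted p = 0.022), whereas Nectin3 was at 0.11 (adjusted p = 0.405).

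**Figure D4:**
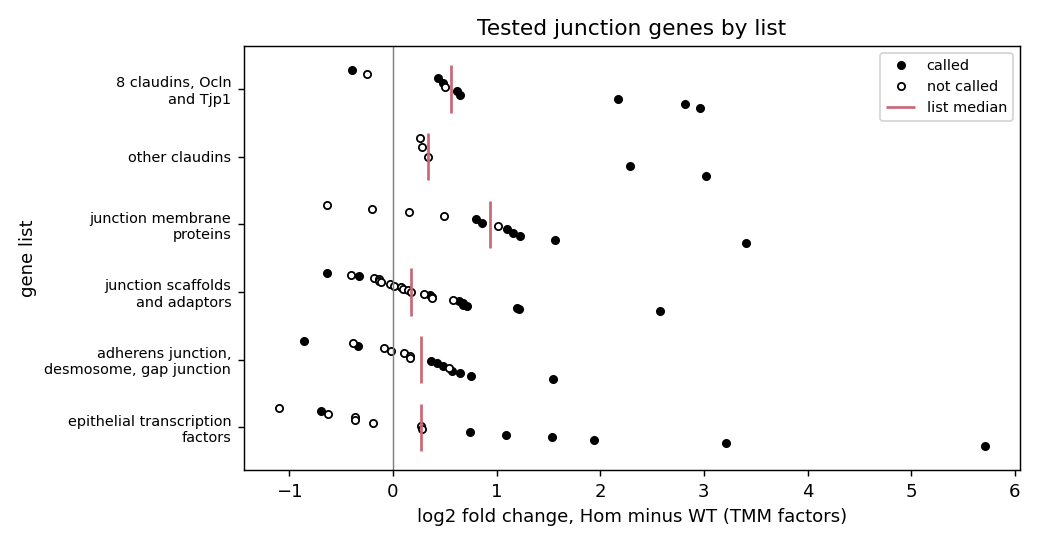
Log2 fold change with TMM factors of each tested gene, by list; filled circles were called, open circles were not, and red lines are list medians. The median is 0.56 for the 10 genes, 0.94 for junction membrane proteins and 0.17 for scaffolds and adaptors.

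Among 14 tested transcription factors linked to epithelial junctions, 6 were higher and 1 lower (median log2 fold change 0.27), and 6 higher and 0 lower with library size alone. Elf3, an ETS factor of epithelia, had 9, 8 and 12 counts in the WT livers and 582, 579 and 961 in the Hom livers (a log2 fold change of 5.71, SE 0.30, adjusted p = 1.59e-04). Its relative Ehf was at 3.21 (SE 0.51, adjusted p = 0.0036). Grhl2, a Grainyhead-like factor known to act on claudin genes, was at 1.94 (SE 0.51, adjusted p = 0.022), with 5, 5 and 16 counts in WT and 30, 58 and 53 in Hom livers. Hnf4a, the hepatocyte factor, was at −0.69 (SE 0.13, adjusted p = 0.0074) and, with library size alone, at −0.23 (adjusted p = 0.131).

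Markers of bile duct cells were higher in the same livers as Cldn4, Cldn6 and Cldn7. Of 15 cholangiocyte markers, none a member, 14 were tested, 11 were higher and 0 were lower, and the median difference was 2.85 on the log2 scale. Their summed level was 151 to 162 CPM in WT and 754 to 996 CPM in Hom livers. The sum was led by Spp1, the secreted osteopontin (log2 fold change 3.78, SE 0.29, adjusted p = 3.69e-04), while the anion exchanger Slc4a2 was at 0.034 (SE 0.078, adjusted p = 0.750). The keratin gene Krt19, a defining marker of these cells, had 44, 35 and 15 counts in WT and 380, 366 and 499 in Hom livers. None of the 15 was at 0 in every liver. The part of these cells in the claudin results was not tested.

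The 20 hepatocyte markers gave 0 higher and 14 lower genes (median log2 fold change −0.69), and their sum fell from between 178944 and 213026 CPM to between 99166 and 130217 CPM. Within it Alb was at −1.26 (SE 0.27, adjusted p = 0.0099) and transferrin, Trf, at 0.67 (SE 0.24, adjusted p = 0.062). With library size alone 7 of the 20 were lower and 1 higher. With TMM factors, Cldn2 and Cldn3 therefore differed in direction from most of this list, and Cldn12 and Gjb1 shared its direction. Cldn3 is also a claudin of bile ducts, and the cells that its transcripts came from were not tested. Cldn12 was at 0.062 with library size alone. The 12 periportal markers gave 1 higher, the epithelial cadherin Cdh1, and 4 lower (median −0.46), with Ass1, a urea cycle enzyme, at −0.58 (SE 0.24, adjusted p = 0.097). The periportal list gave 1 higher and 2 lower with library size alone (median −0.0081).

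The remaining cell types are given for the same livers. The 13 endothelial markers gave 1 higher and 5 lower (median −0.32), with Eng at −0.24 and Stab1 at −0.028. This list turned to 3 higher and 2 lower with library size alone (median 0.13). The 13 stellate and fibroblast markers gave 7 higher and 1 lower (median 1.30), with Dcn at 0.12 and Col1a1, a fibrillar collagen gene, at 3.32 (SE 0.20, adjusted p = 2.00e-04). Their summed level was 402 to 470.4 CPM in WT and 795 to 910.4 CPM in Hom livers, and its part in the claudin results was not tested. The 13 macrophage markers gave 4 higher and 2 lower (median 0.48), with Lyz2 at 1.30 (adjusted p = 0.021) and Csf1r at 0.48 (adjusted p = 0.328). Among the macrophage markers 7 were higher and 1 lower with library size alone. Of 8 tested lymphocyte markers 3 were higher and 0 lower (median 1.12), with Ptprc at 1.62 (adjusted p = 0.030) and Cd4 at −0.17 (adjusted p = 0.755). Of 6 tested mesothelial markers 1 was higher and 0 lower (median 1.01), with Wt1 at 3.82 (adjusted p = 0.0033) and Krt5 at −1.70 (adjusted p = 0.301).

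**Figure D5:**
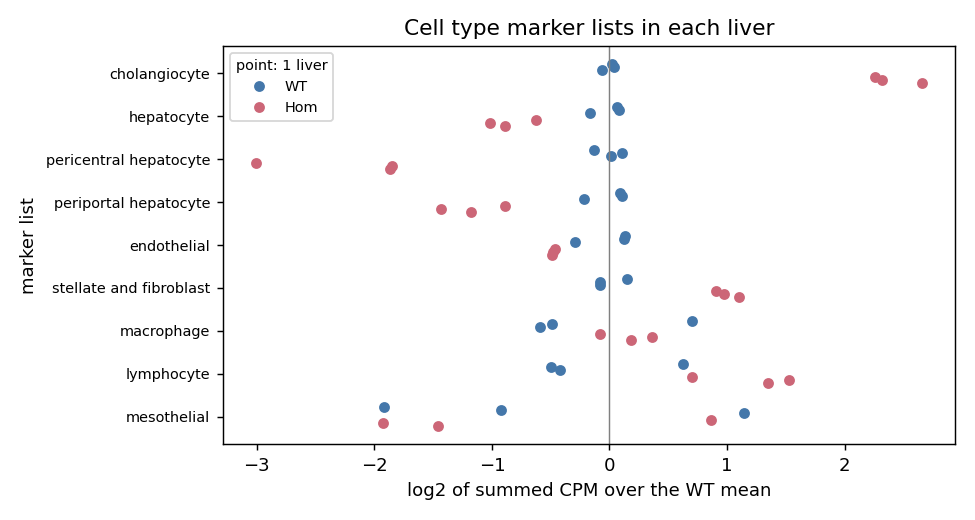
Summed CPM of each cell type marker list in each liver, as log2 of its ratio to the WT mean (WT blue, Hom red). The cholangiocyte list is higher in every Hom liver (754 to 996 CPM against 151 to 162 CPM), and the hepatocyte lists are lower in every Hom liver.

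Genes of the other lists were compared with Cldn12, the fall, by the root mean square difference of log2(CPM + 0.5), each relative to its WT mean, over the 6 livers and among 170 genes with a mean of at least 1 CPM. Nearest to Cldn12 were the polarity gene Pard6a (0.051), the endothelial receptor gene Tek (0.099) and Apob (0.10), the core protein of very low density lipoprotein.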

How the data were processed

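RNA of 6 mouse livers (3 WT, 3 Hom) was extracted with Trizol and sequenced on DNBSEQ by BGI Genomics. The authors deposited 1 table of 17975 genes with estimated counts, FPKM and TPM for each liver. The submitters' processing notes name HISAT2 2.0.4, Bowtie2 2.2.5, RSEM 1.2.12 and mm9, without roles; strandedness is not given in the sources used here. The deposited FPKM and TPM values are scaled by the authors for the length of each gene and for depth. The deposited group means were not used.

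Estimated counts were rounded and fitted across all 13805 genes kept by filterByExpr in R 4.3.3 with edgeR 4.0.16 (TMM, glmQLFit and glmQLFTest, Benjamini-Hochberg adjustment, threshold 0.05, no minimum fold change). Each standard error is the absolute log2 fold change over the square root of edgeR's F. The procedure was run on simulated counts in which a small random set of genes changed in both directions. That run does not test the scaling between libraries. TPM served for levels and shares only. FPKM gave the gene length (87.8% of tested genes) for the length correction. GC content was read from GENCODE M21 transcripts, the longest of each gene (97.7% of tested genes). Promoters are RefSeq, GRCm38.p6, which differs from mm9; no other coordinates were used. Alternatives included DESeq2 1.42.0.

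The 10 genes, the marker lists and the tests were chosen with earlier results of these data known. Named besides the members were Nek7, every other tested claudin, up to 3 called genes with the largest rises and falls of each junction list, the 2 most abundant genes of each marker list, and the 3 genes of other lists nearest in pattern to the largest fall (those nearest to the largest rise are not given, since 0.5 CPM was added before the log, which weighs on genes near 0 CPM in WT livers); the promoters were printed in place of proteins, for which no reference was at hand; others are named as defining markers or as chosen after their values were seen. WT and Hom livers share replicate numbers but are different mice. Where nothing more links or separates the samples, p-values measure the spread between these livers. Hom replicate 1 is set apart by its 0 counts of Y-linked genes, and the part of sex in this spread was not tested. Totals differed by little, so depth limits mainly Cldn4, Cldn6 and Cldn7 in WT livers.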

Additional observations from a re-analysis of the deposited data

How the results depend on the processing

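Of 148 values of the 10 genes under an alternative, 126 kept their direction and their side of the threshold, 18 lost a call, 2 gained one and 2 reversed. The reversals were Cldn1 (0.22) and Cldn12 (0.062) with library size alone, which left 0 genes lower. A log2 fold change of at least 1 left 3 higher and 0 lower. Leaving out 1 liver at a time gave 4 to 6 genes higher and 1 to 2 lower, with 4 higher without Hom replicate 2 and 2 lower without WT replicate 1. With the replicate block, 5 genes were higher and 1 lower, and no call was lost besides Cldn6 and Cldn14. Deviations of same-numbered livers from their group means correlated at −0.11, −0.056 and −0.049. With so few livers in a group, these values cannot tell whether same-numbered livers share a batch. With at least 10 counts in every liver, 8 of the genes were tested and 5 were higher. For the stricter fold change, the left-out livers, the block and this filter, the shares over all tested genes are not given. These counts therefore cannot be set against the general rate. The loess correction for GC content lost Cldn14 (0.51, adjusted p = 0.065), and that for gene length changed no call, nor did upper-quartile factors, DESeq2 or testing without the filter. Shares based on estimated counts, which are not per length, moved by 4.93 points for Cldn2 and −7.31 points for Cldn12, against 1.05 and −5.48 points with TPM; the other 70 of 72 values of the shares moved by no more than 1 SD, taken from the group with the larger SD. The cause of these dependences was not tested.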

Other observations

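WT replicate 3, the WT liver with the most Cldn4 counts, also held more counts of epithelial transcription factor genes, singled out after their values were seen. Ovol1 and Grhl1 had 32 and 77 counts there, against 3 and 5 and against 21 and 17 in the other WT livers. Cldn7 did not follow, with 10 counts in that liver against 18 and 11. Hom replicate 1, the liver with the most Cldn15 counts, held 181 counts of the mesothelial gene Msln, against 5 and 9 in the other Hom livers. The origin of these transcripts was not tested.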
